A study of Mus musculus with 24 samples.

Results

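Public T cell receptor (TCR) β clonotypes were defined as receptors found in 4 or more of 12 tumor-bearing mice, in either tumor of a mouse. A clonotype was a CDR3 amino acid sequence with its V and J segment, and only sequences without a stop codon and with 5 or more reads in a tumor were used. The rule found 146 public clonotypes among 28196, against 26919 clonotypes found in one mouse. These clonotypes were chosen by the number of mice in which they were detected, so that number is a description, with no test.

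All mice were female BALB/c mice aged 7 to 9 weeks that carried CT26.CL25 tumors, grown from the same number of cells in each flank. CT26.CL25 is a mouse colon carcinoma line that carries a bacterial β-galactosidase transgene, so all groups shared the same line and a foreign antigen. There were 4 groups of 3 mice: time-matched mice (6, 12 and 14), untreated, with both tumors harvested on day 13; time-separated mice (4, 17 and 19), untreated and also the vehicle group, with harvests on day 9 (by surgery) and on day 20; and mice with the same interval of 11 days that received decitabine (DAC), a DNA methyltransferase inhibitor, at 0.5 mg/kg (low-dose DAC, mice 3, 11 and 20) or at 2 mg/kg (high-dose DAC, mice 7, 10 and 16) between the harvests. Tumors of a mouse are numbered in the labels, with no word on which came first, so no direction in time was assigned. The DAC groups therefore hold, for each mouse, a tumor removed before the drug and a tumor harvested after it. The tables hold TCR sequences of RNA from whole tumors and no other gene, so the tissue could not be checked against markers, and more T cells of a clone and more receptor RNA per cell cannot be told apart.

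A TCR β chain is assembled by joining a V, a D and a J segment, and bases are trimmed from the segment ends and added without a template at the joints. The CDR3 spans this join, from a cysteine of the V segment to a phenylalanine of the J segment, and makes most of the contact with the presented peptide. Because many joins encode the same amino acids, different animals can make the same receptor independently, and receptors with few added bases and short CDR3 are known to be shared more often between individuals.

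Most clonotypes were found in few mice. There were 954 clonotypes in 2 mice and 177 in 3 mice, 62 in 4, 37 in 5, 20 in 6, 9 in 7, 10 in 8, 5 in 9 and 3 in 11 mice, and none was found in all 12. Just outside the limit, the 177 clonotypes of 3 mice had a CDR3 of 13.4 ± 1.76 residues (SD) and held 9.88% ± 8.87 of the reads of a tumor (SD over 24 tumors), and just inside, the 62 clonotypes of 4 mice had 13.1 ± 2.01 residues and held 4.71% ± 5.66. Of the 146 public clonotypes, 64 were found in all 4 groups of mice, 59 in 3 groups and 23 in 2. Each mouse held between 38 (mouse 16) and 84 (mouse 11) of them.

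**Figure D1:**
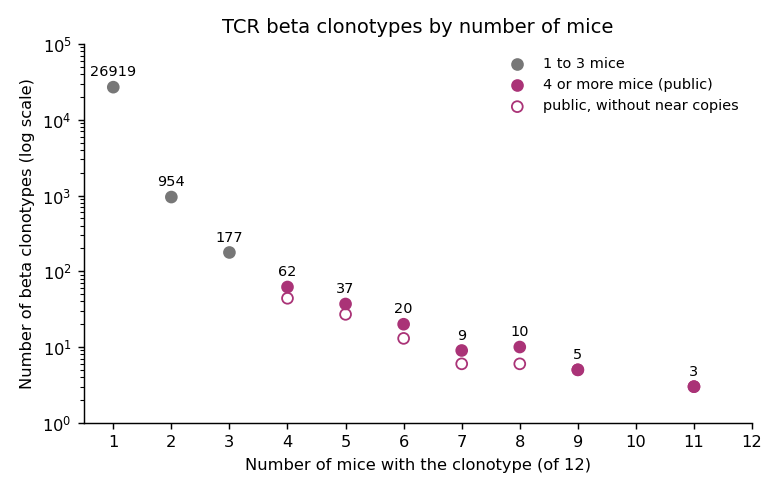
Number of TCR β clonotypes (log scale) against the number of mice in which each was found. Filled points count all clonotypes (grey for 1 to 3 mice, purple for the 146 public ones) and open points the 104 public clonotypes that remained without near copies of a larger clone, with 26919 clonotypes in one mouse and 3 in 11 mice.

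Part of the 146 reached 4 mice only when near copies of a larger clone were counted. A near copy was a sequence that differed by a single base from another with the same V and J segment and at least 50 times more reads in the same tumor. Without such sequences 104 of the 146 clonotypes were still found in 4 or more mice, and the other 42 were not. Some of the 42 were themselves large in a mouse. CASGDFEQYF took 8.01% and 8.73% of the reads of the tumors of mouse 19. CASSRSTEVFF reached 1.35% of a tumor, with 99.8% of its reads in mouse 14. Of 441 sequences of the 42, counted per tumor, 426 had a larger neighbor and a median of 0.279% of its reads. Of the 42, 16 neighbored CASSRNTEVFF, 11 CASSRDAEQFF and 5 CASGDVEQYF. The 42 held a median of 0.192% of the reads of a tumor and 9.53% at most, in tumor 2 of mouse 19. In 11 of the 146 the first cysteine or the last phenylalanine was missing, and all 11 were among the 42, such as WASSRNTEVFF and CASSRNTEVFL. Among the clonotypes of one mouse 19.8% were near copies. Only single-base neighbors were looked at, so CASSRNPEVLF (TRBV17, TRBJ1-1, 8 mice) and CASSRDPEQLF (TRBV17, TRBJ2-1, 4 mice) stayed among the 104. Whether they were copies of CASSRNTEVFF and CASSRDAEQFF at more than a single base was not tested. The differences in length, middle bases, segments, encodings and persistence are therefore given with and without near copies.

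The following sequences are the most-read encodings of 4 of the 5 clonotypes with the highest mean shares, printed from the tables, to show how far mice used the same bases for the same receptor. Bases in capitals, called middle bases here, belong neither to the start shared by sequences of the V segment nor to the end shared by sequences of the J segment, and the mice named had that encoding as their most-read one. Clonotype A (TRBV13-1, TRBJ2-4, 16 residues) and, further on, clonotype B (TRBV13-1, TRBJ2-1, 15 residues) are named by letters.
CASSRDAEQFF in mice 3, 4, 6, 10, 16, 17, 20: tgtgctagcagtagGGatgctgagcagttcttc
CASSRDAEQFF in mice 11, 12, 19: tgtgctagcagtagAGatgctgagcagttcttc
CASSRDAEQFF in mouse 14: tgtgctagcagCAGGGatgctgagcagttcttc
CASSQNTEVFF in mice 3, 6, 12, 14: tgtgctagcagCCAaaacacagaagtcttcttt
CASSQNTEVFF in mice 17, 19: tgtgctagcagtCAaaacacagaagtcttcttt
Clonotype A in mice 7, 11, 12, 14, 17: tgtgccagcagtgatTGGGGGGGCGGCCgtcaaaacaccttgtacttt
Clonotype A in mouse 16: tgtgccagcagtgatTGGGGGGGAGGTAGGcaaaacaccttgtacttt
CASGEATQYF in mice 3, 4, 6, 10, 12, 14, 16, 20: tgtgccagcggtgaGGCcacccagtacttt
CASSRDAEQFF had 2 to 5 middle bases and clonotype A 13 to 15.

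The next sequences belong to the 4 clonotypes found in most mice among those of TRBV13-2 and TRBJ2-7 in which every mouse had the same most-read encoding, and show how close these clonotypes were to each other.
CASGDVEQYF in mice 3, 4, 6, 7, 11, 12, 14, 16, 17, 19, 20: tgtgccagcggtgatgTtgaacagtacttc
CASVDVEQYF in mice 4, 7, 11, 12, 14, 16, 17, 19, 20: tgtgccagcgTTGATGTtgaacagtacttc
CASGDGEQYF in mice 4, 7, 11, 12, 14, 16, 17, 19, 20: tgtgccagcggtgatgGtgaacagtacttc
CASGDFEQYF in mice 4, 6, 7, 11, 14, 17, 19: tgtgccagcggtgatTTtgaacagtacttc
Counted from 1 at the first base of the CDR3, with the base of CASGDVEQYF first, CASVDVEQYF differed by G11T, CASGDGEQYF by T17G and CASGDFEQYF by G16T. The V start was read only up to the first differing base. In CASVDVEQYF the bases after G11T are therefore in capitals, although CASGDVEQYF has the same bases there. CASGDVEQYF had more reads than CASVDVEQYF in 14 of the 14 tumors that held both, by a median of 89.1 times (range 27.4 to 137), and more than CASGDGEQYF in 14 of 14, by a median of 96.2 times (6.85 to 164). Without near copies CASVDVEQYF was left in 5 mice and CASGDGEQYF in 4, which kept them among the 104. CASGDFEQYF had fewer reads than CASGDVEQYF in 7 of 11 tumors and more in the rest, and was left in 2 mice.

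The last set belongs to a pair of the 5 clonotypes with most distinct encodings between mice, and shows one receptor spelled in several ways.
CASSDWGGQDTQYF in mice 3, 4, 14: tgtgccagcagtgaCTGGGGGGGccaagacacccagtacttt
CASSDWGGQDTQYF in mice 16, 20: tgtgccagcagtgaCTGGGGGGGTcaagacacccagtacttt
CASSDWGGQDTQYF in mouse 11: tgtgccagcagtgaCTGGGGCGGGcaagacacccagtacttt
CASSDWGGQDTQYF in mouse 10: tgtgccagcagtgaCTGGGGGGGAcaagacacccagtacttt
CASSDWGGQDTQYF in mouse 17: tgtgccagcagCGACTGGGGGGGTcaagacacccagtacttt
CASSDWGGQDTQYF in mouse 7: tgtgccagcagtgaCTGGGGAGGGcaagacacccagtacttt
Clonotype B in mouse 20: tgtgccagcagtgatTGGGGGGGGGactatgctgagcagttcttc
Clonotype B in mouse 11: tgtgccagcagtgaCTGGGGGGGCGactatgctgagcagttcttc
Clonotype B in mouse 17: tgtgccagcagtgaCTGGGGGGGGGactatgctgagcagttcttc
Clonotype B in mouse 6: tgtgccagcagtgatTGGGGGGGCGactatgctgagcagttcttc
Clonotype B in mouse 19: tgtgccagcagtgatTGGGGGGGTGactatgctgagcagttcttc
Clonotype B in mouse 7: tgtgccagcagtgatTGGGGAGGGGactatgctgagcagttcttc
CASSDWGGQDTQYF was found in 9 mice with 6 most-read encodings and clonotype B in 6 mice with a different one in each. The others of these 5 were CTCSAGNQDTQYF with TRBV1 and TRBJ2-5 (7 mice, 6 encodings), a clonotype of 16 residues with TRBV13-1 and TRBJ2-5 (7 mice, 5 encodings) and one of 15 residues with TRBV19 and TRBJ2-1 (7 mice, 5 encodings).

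The most widely shared clonotypes differed strongly in how their reads were spread over mice. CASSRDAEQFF (TRBV17, TRBJ2-1) was found in 11 mice and had the highest mean share of the 146, 5.11% over 24 tumors, but 94.8% of its reads lay in mouse 6. There it took 56.6% of the reads of tumor 1 (95% exact Clopper-Pearson interval 56.5 to 56.7) and 56.8% of tumor 2 (56.6 to 56.9). These and all later intervals cover counting error only. The other time-matched tumors had 0.741% to 1.04%, and the 6 time-separated tumors ranged from 0% to 3.49% with a median of 0.0219%. In the 6 low-dose tumors the median was 0.0104% (0% to 0.157%) and in the 6 high-dose tumors 0.000624% (0% to 0.00305%). The time-matched tumors were all above the DAC tumors, whereas mouse 19 of the time-separated group, with 2.15% and 3.49%, was above mice 12 and 14.

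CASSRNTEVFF (TRBV17, TRBJ1-1), also in 11 mice, was spread more evenly, with its largest part, 29.7% of its reads, in mouse 11. Its share had a median of 2.04% in the time-separated tumors (0.339% to 2.58%), 1.90% in the low-dose tumors (0% to 7.21%), 0.289% in the high-dose tumors (0% to 3.15%) and 0.0201% in the time-matched tumors (0% to 1.44%). The ranges of all groups overlapped.

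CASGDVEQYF (TRBV13-2, TRBJ2-7) was found in both tumors of 11 mice and in neither of mouse 10, always with the same most-read encoding and only 1 middle base. Its median share was 0.250% in time-separated (0.105% to 0.956%), 0.381% in low-dose (0.0220% to 2.26%), 0.154% in high-dose (0% to 9.85%) and 0.101% in time-matched tumors (0.00929% to 2.21%). The highest value was in tumor 2 of mouse 7 (95% exact interval 9.62 to 10.1), and the groups overlapped.

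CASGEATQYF (TRBV13-2, TRBJ2-5) showed the opposite of an even spread. It took 30.2% (30.1 to 30.3) and 33.3% (33.2 to 33.5) of the reads of the tumors of mouse 16, which held 400244 of its reads. The other 7 mice with the clonotype had between 5 and 17 reads each, with the same bases. Clonotype A was alike in this, with 279942 reads in mouse 14, 433 in mouse 16 and 5 to 15 in the other 4 mice. Of those, the 4 mice with 5 to 15 reads had the bases of mouse 14 and mouse 16 had others. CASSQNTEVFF (TRBV17, TRBJ1-1) had 187613 reads in mouse 12, 1340 in mouse 17, 1347 in mouse 19 and 5 to 24 in mice 3, 6 and 14. Mice 17 and 19 shared an encoding that differed from that of the other 4.

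Among the remaining clonotypes in most mice, none was large. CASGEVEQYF (TRBV13-2, TRBJ2-7, 9 mice) reached at most 0.937% of a tumor, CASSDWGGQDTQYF (TRBV13-3, TRBJ2-5, 9 mice) 0.186%, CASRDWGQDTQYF (TRBV4, TRBJ2-5, 9 mice) 0.108%, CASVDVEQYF and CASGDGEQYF (9 mice each) 0.105% each, and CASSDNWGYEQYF (TRBV13-3, TRBJ2-7, 8 mice) 0.228%. Without near copies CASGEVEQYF was left in 4 of its 9 mice. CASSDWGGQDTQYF was at 0.186% in its highest tumor and was found in 14 tumors of 9 mice, with its largest part, 24.4% of its reads, in mouse 14.

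Public clonotypes had shorter CDR3. All 146 measured 12.6 ± 1.95 residues (SD) with a range of 10 to 16, the 104 without near copies 13.1 ± 1.82, and the clonotypes of one mouse 13.9 ± 1.67. A CDR3 of 11 residues was found in 46 of the 146 (31.5%), in 18 of the 104 (17.3%) and in 7.53% of the clonotypes of one mouse. To compare the kinds within animals, a clonotype of a mouse counted as public if it was also in 4 or more of the other 11 mice and as a one-mouse clonotype if it was in none of them. This left 26 to 59 public and 1638 to 3182 one-mouse clonotypes per mouse, drawn from the 84 clonotypes of 5 or more mice. The public ones were shorter in 12 of 12 mice, with means of 12.3 ± 0.370 and 13.9 ± 0.198 residues (SD, n = 12 mice) and a difference of -1.63 ± 0.473 (exact two-sided sign-flip permutation test over mice, p = 0.000488, the smallest that 12 mice allow). Without near copies the difference was -1.03 (exact p = 0.000488). The same public clonotypes recur in several mice, so the mice are not independent in their public part, here and in the comparisons that follow.

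The shorter CDR3 went with fewer middle bases. Public clonotypes of a mouse had 7.91 ± 0.789 middle bases against 12.0 ± 0.626 for one-mouse ones, a difference of -4.13 ± 1.10 that was negative in 12 of 12 mice (exact sign-flip test, p = 0.000488). Without near copies the difference was -3.49 (exact p = 0.000488). The count rests on the V and J ends read from the tables themselves, since no germline sequence was used here, and includes D bases as well as added ones.

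**Figure D2:**
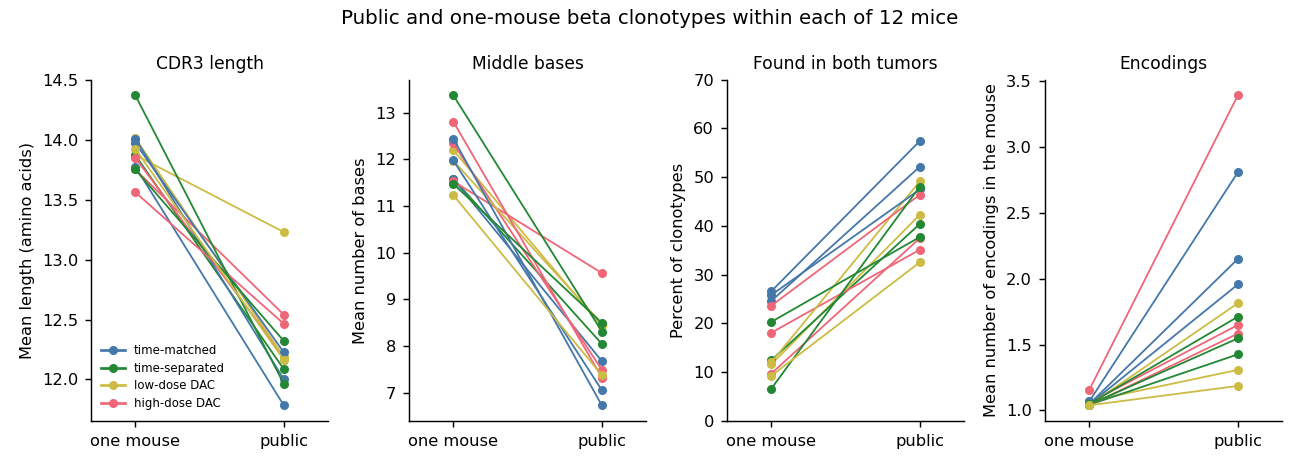
Mean CDR3 length in amino acids, mean number of middle bases, percent of clonotypes found in both tumors and mean number of nucleotide encodings for one-mouse and public clonotypes of each of 12 mice, with a line per mouse colored by group. Length and middle bases fall and the other measures rise from one-mouse to public in 12 of 12 mice.

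TRBV17 was the V segment most overrepresented among public clonotypes. It made up 34.4% of the public and 8.40% of the one-mouse clonotypes of a mouse, higher in 12 of 12 mice (exact sign-flip test, Benjamini-Hochberg adjusted p = 0.00125 over 23 segments). Without near copies, of which many belonged to the TRBV17 clones named above, the values were 17.9% and 5.40% (exact test, adjusted p = 0.00140). Also higher by the exact test were TRBV4 (9.28% against 4.93%, adjusted p = 0.0331, higher in 9 of 12 mice) and TRBV13-2 (17.8% against 12.8%, adjusted p = 0.0211, in 10 of 12). Without near copies TRBV4 kept its difference (12.5% against 4.98%, exact test, adjusted p = 0.00346), while TRBV13-2 was at 14.6% and 12.6% (adjusted p = 0.299).

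In all, 20 of 23 V segments passed the test, so 87.0% of segments were called, 13.0% as higher and 73.9% as lower in public clonotypes. Shares add up to a whole, so a rise of TRBV17 lowers the rest. Of the 17 called lower, 8 had no public clonotype in any mouse in this comparison (TRBV8, TRBV10, TRBV12-1, TRBV12-2, TRBV15, TRBV24, TRBV26 and TRBV30), and since those segments made up only 0.0857% to 1.02% of the one-mouse clonotypes, 26 to 59 public clonotypes per mouse could hold few of them. With a public share of 0 in every mouse no difference could be above 0, so the call of lower says little about these 8. Larger segments called lower were TRBV13-1 (7.92% against 14.8%), TRBV29 (0.847% against 4.67%), TRBV20 (0.918% against 4.26%), TRBV1 (2.61% against 5.77%), TRBV13-3 (5.52% against 8.40%), TRBV2 (0.881% against 3.35%), TRBV5 (6.33% against 8.60%), TRBV31 (2.35% against 4.59%) and TRBV3 (1.60% against 2.55%). Without near copies 15 of 23 were called (65.2%), 2 higher (8.70%) and 13 lower (56.5%), and TRBV13-1 (10.8% against 12.5%), TRBV13-3, TRBV5 and TRBV3 no longer passed. TRBV14, TRBV16 and TRBV19 passed in neither.

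A pair of segment lists relates the public clonotypes to known biology of the strain. BALB/c mice delete T cells of several V segments through superantigens of endogenous mammary tumor viruses, and TRBV26, TRBV12-1, TRBV12-2, TRBV16 and TRBV15 together held 2 of the 146 public clonotypes (1.37%) and 3.67% of the clonotypes of one mouse. All but TRBV16 were called lower, so 4 of 5 beside the 73.9% of all segments called lower, and these 4 were among the 8 segments with no public clonotype in this comparison. Their calls have the limit given above for those 8. None was called higher, with a median difference of -0.31 percentage points against -0.93 over all 23 segments. TRBV13-2, TRBV29 and TRBV1, used by the β chain of invariant natural killer T cells, held 33 of the 146 (22.6%) and 22.9% of those of one mouse. TRBV13-2 was called higher and TRBV29 and TRBV1 lower, with a median of -3.17, and without near copies none was higher.

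Among J segments, by the same exact test, TRBJ1-1 made up 26.2% of the public and 8.52% of the one-mouse clonotypes (adjusted p = 0.00146), TRBJ2-5 20.2% and 12.6% (adjusted p = 0.00326), TRBJ2-7 22.6% and 18.3% (adjusted p = 0.0474) and TRBJ2-1 17.1% and 13.6% (adjusted p = 0.0410). TRBJ1-1 and TRBJ2-5 were higher in 11 of 12 mice each and TRBJ2-7 and TRBJ2-1 in 10 of 12. The other 8 were lower, so 12 of 12 J segments were called (100%, with 33.3% higher and 66.7% lower), with the largest differences in TRBJ2-4 (3.21% against 9.79%), TRBJ1-4 (1.16% against 6.67%), TRBJ2-3 (3.25% against 8.74%) and TRBJ2-2 (0.831% against 5.99%). TRBJ1-2 was at 1.60% against 4.91%, TRBJ1-3 at 1.95% against 4.79% and TRBJ1-6 at 1.83% against 3.69%. TRBJ1-5 had no public clonotype in this comparison against 2.32% of the one-mouse ones. Without near copies 10 of 12 were called (83.3%), 3 higher (25.0%) and 7 lower (58.3%). Of the 3 higher, TRBJ2-5 then had the largest difference (28.3% against 11.6%, 12 of 12 mice, exact test, adjusted p = 0.000977), followed by TRBJ2-1 (18.9% against 12.4%) and TRBJ1-1 (13.3% against 8.77%). TRBJ2-7 was at 19.3% and 18.4% (exact test, adjusted p = 0.509).

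**Figure D3:**
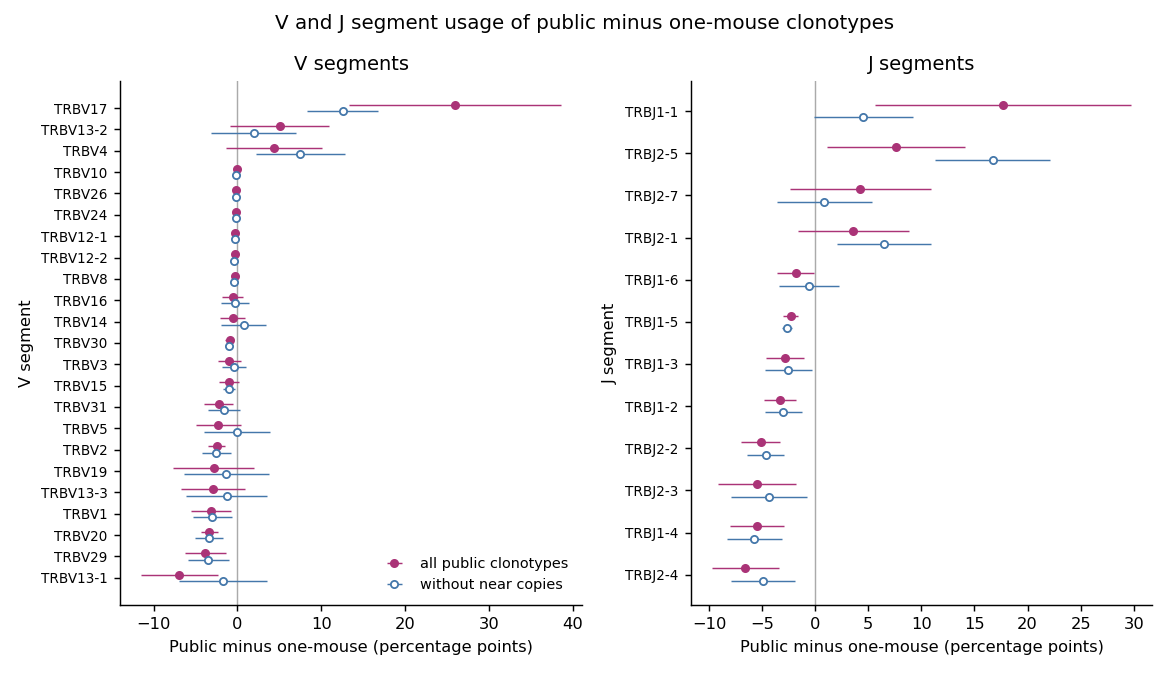
Share of public minus share of one-mouse clonotypes, in percentage points, for 23 V and 12 J segments (mean and SD over 12 mice), for all public clonotypes (filled) and without near copies (open). TRBV17 and TRBJ1-1 lie farthest to the right with all clonotypes, and TRBV17 and TRBJ2-5 without near copies.

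Some pairings and stretches recurred among the 104 clonotypes that were still public without near copies, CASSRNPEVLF and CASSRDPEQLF included. They were set beside the 21670 clonotypes of one mouse that were left without near copies. The most frequent pairings were TRBV13-2 with TRBJ2-7 (9 clonotypes, 8.65%, against 2.18% of those of one mouse), TRBV17 with TRBJ2-7 (7, 6.73% against 1.31%), TRBV4 with TRBJ2-1 (7, 6.73% against 0.720%), TRBV17 with TRBJ1-1 (5, 4.81% against 0.591%) and TRBV13-1 with TRBJ2-7 (5, 4.81% against 2.20%). The residues DWG, as in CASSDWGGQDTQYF and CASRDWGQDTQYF, were in 16 of the 104 (15.4%) across 4 V segments and in 4.98% of the clonotypes of one mouse. TGGY was in 7 (6.73% across 5 V segments, against 0.720%) and DRV in 4 (3.85%, all with TRBV4, against 0.558%). These stretches were picked after the clonotypes were seen, so they are a description.

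Whether the same receptor was built from the same bases was compared between mice through each mouse's most-read encoding. Of 1856 pairs of mice that shared a public clonotype, 676 (36.4%) had the same encoding, and with near-copy sequences removed 408 of 1257 (32.5%) for the 104 clonotypes in the mice that still held them. Between tumors of the same mouse the encoding was the same in 311 of 337 cases (92.3%), and without near-copy sequences in 188 of 218 (86.2%). Of the 146 clonotypes, 129 had 2 or more most-read encodings between mice, 20 a different one in every mouse and 17 a single one. Without near-copy sequences 95 of the 104 clonotypes had 2 or more, and in 29 of the 104, 4 or more mice held one and the same nucleotide sequence.

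Without near-copy sequences the agreement was lower in classes with more middle bases. It was 52.9% in 257 pairs from 12 clonotypes with fewer than 3 middle bases, 36.5% in 178 pairs with 3 to under 6, 28.2% in 284 pairs with 6 to under 9 and 23.6% in 538 pairs with 9 or more. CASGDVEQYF alone gave 55 of the 257 pairs, all with the same encoding, and without it the first class was at 40.1% of 202 pairs. Pairs share mice and clonotypes, so these shares are a description.

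The agreement also differed with the ratio of reads between the mice of a pair. It was 31.0% in 947 pairs whose reads differed by less than 10 times, 33.7% in 187 pairs at 10 to under 100 times, 20.0% in 75 pairs at 100 to under 1000 times and 75.0% (36 of 48) at 1000 times or more. Those 48 pairs came from 13 clonotypes, among them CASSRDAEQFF, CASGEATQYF, clonotype A and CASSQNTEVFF. In 38 of 774 detections of a public clonotype in a mouse, the reads were at least 1000 times lower than in the mouse with most and had the same encoding, as were 7 of the 8 mice of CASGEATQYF and 6 of the 11 of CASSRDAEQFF. Whether such reads came from T cells of that mouse or from another library was not tested.

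**Figure D4:**
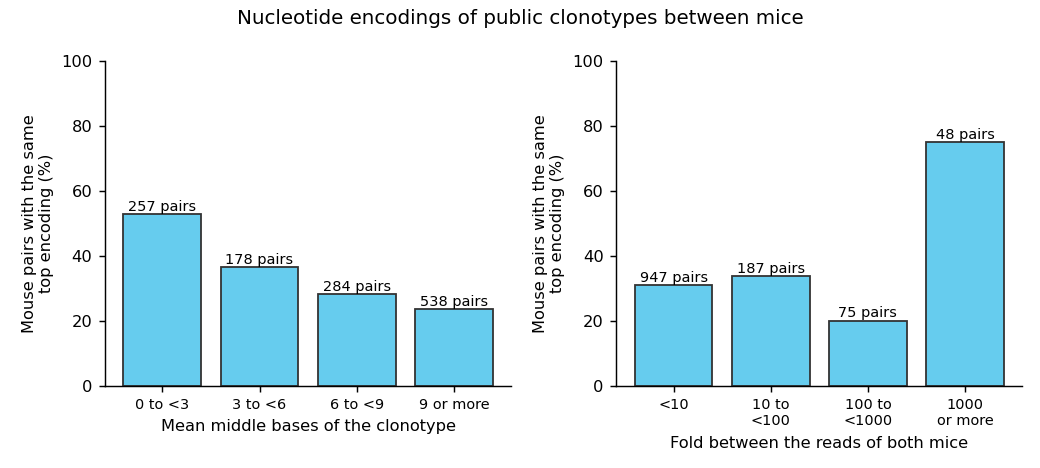
Percent of mouse pairs with the same most-read encoding of a shared public clonotype (104 clonotypes, near-copy sequences removed), by the mean number of middle bases of the clonotype and by the fold between the reads of both mice, with the number of pairs above each bar. The share goes from 52.9% to 23.6% with more middle bases and is 75.0% where reads differ by 1000 times or more.

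Within a mouse, public clonotypes also had more encodings. A public clonotype had a mean of 1.88 ± 0.642 nucleotide sequences per mouse and a one-mouse one 1.06 ± 0.0326, a difference of 0.819 ± 0.616 (above 0 in 12 of 12 mice, exact sign-flip test, p = 0.000488). Without near copies the difference was 0.286 (exact p = 0.000488), and averaged within 4 classes of read count 0.797 (above 0 in 9 of 12 mice, p = 0.0205). The difference lay mostly in the larger clones. By reads in the larger tumor, public and one-mouse clonotypes had 1.01 and 1.00 encodings at 5 to under 10 reads, 1.16 and 1.02 at 10 to under 100, 1.87 and 1.26 at 100 to under 1000, and 7.68 and 4.28 at 1000 or more, a class with no upper limit that held 47 public and 204 one-mouse clonotypes.

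Public clonotypes were more often found in both tumors of a mouse. This held for 43.9% ± 7.48 of the public and 16.7% ± 7.25 of the one-mouse clonotypes of a mouse, a difference of 27.1 ± 7.34 percentage points (range 17.0 to 41.5, above 0 in 12 of 12 mice, exact sign-flip test, p = 0.000488), and of 32.5 points without near copies. Clonotypes with more reads are found in both tumors more easily. Of clonotypes with 5 to under 10 reads in their larger tumor, 13.8% of 116 public and 7.29% of 6416 one-mouse ones were in both tumors, at 10 to under 100 reads 37.6% of 263 and 16.8% of 18527, at 100 to under 1000 reads 71.0% of 100 and 54.9% of 1772, and at 1000 or more reads 97.9% of 47 and 92.6% of 204. Within these classes the difference averaged 11.1 points (above 0 in 11 of 12 mice, exact p = 0.00244). The classes were taken with near copies kept, and were not combined with their removal.

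Public clonotypes of the time-matched mice were found in both tumors in 52.4% ± 4.98 (n = 3) of cases and those of the 9 other mice in 41.0% ± 5.88 (exact permutation test, p = 0.0227, not adjusted). The ranges overlapped, with 47.5% to 57.4% and 32.6% to 49.2%. One-mouse clonotypes were found in both tumors in 24.6% to 26.6% of cases in the time-matched mice and in 6.62% to 23.6% in the other 9, and their part in the difference was not tested. The test no longer passed when any of mice 4, 6, 7, 14, 17 or 19 was left out (differences 7.70 to 13.0 points, exact p = 0.0545 to 0.212), without near copies (11.8 points, exact p = 0.0545), with public meaning 5 or more mice (11.7 points, exact p = 0.15) or with all libraries thinned to one size (9.97 points, exact p = 0.177).

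The share of reads in public clonotypes varied widely between mice, and the ranges of the groups overlapped. It ranged from 3.54% in tumor 1 of mouse 20 (95% exact interval 3.44 to 3.64) to 60.4% in tumor 2 of mouse 6 (60.3 to 60.6), with a median of 22.8%. The time-matched tumors had a median of 44.9% (22.0% to 60.4%), the time-separated 24.2% (7.40% to 41.4%), the low-dose 12.3% (3.54% to 28.6%) and the high-dose 20.2% (9.73% to 60.0%). Most of it came from few clonotypes. The 10 largest of the 146 made up 19.1 of the mean share of 27.6%, 79 were never above 0.1% of a tumor, and without the largest public clonotype of each tumor the share was between 1.67% and 29.8%. In 13 of the 24 tumors the largest clonotype of the tumor was a public one, such as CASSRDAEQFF in mouse 6, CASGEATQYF in mouse 16 and clonotype A in mouse 14. Several of these, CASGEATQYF and clonotype A among them, counted as public through a few reads in other mice with the bases of the mouse that held most. Without sequences that had at least 1000 times more reads in another mouse, 138 clonotypes were public, the largest clonotype was public in 7 of those 13 tumors, and the share of reads had a median of 12.7% (2.76% to 60.4%). It was then 22.7% and 15.9% in the tumors of mouse 16, 10.0% and 8.08% in those of mouse 14, and 59.6% and 60.4% in those of mouse 6.

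**Figure D5:**
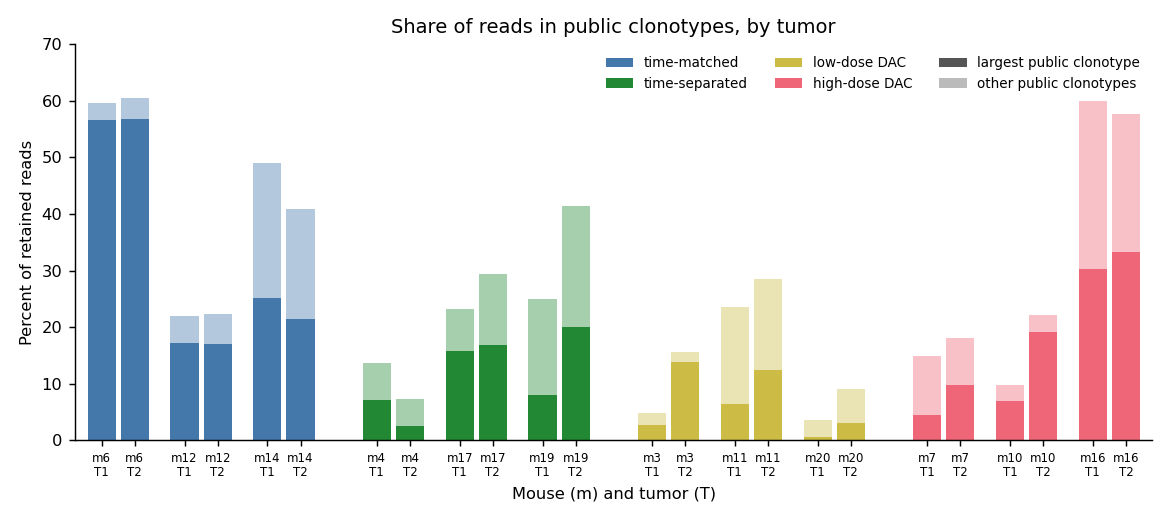
Percent of the retained reads of each tumor in public clonotypes, by mouse and tumor and colored by group, with the largest public clonotype in full color and the other public clonotypes in pale color. Both tumors of mice 6 and 16 stand near 60%, and tumor 1 of mouse 20 is lowest at 3.54%.

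None of 4 group comparisons of this share passed a test. With the tumors of a mouse averaged, it was 42.4% ± 19.0 in the time-matched, 23.4% ± 11.6 in the time-separated, 14.2% ± 10.5 in the low-dose and 30.4% ± 24.6 in the high-dose mice (SD, n = 3 each). Time-matched minus time-separated was 19.0 points (exact permutation test, two-sided, p = 0.3, adjusted p = 0.4), and minus all 9 time-separated mice 19.7 points (exact p = 0.105, adjusted p = 0.4). Low dose minus time-separated was -9.16 points (exact p = 0.2, adjusted p = 0.4) and high dose minus time-separated 7.05 points (exact p = 0.8, adjusted p = 0.8). With 3 mice against 3 the smallest possible p is 0.1. Time-matched minus time-separated was 11.9 points without mouse 6 and 33.7 without mouse 12, and low dose minus time-separated -19.2 points without mouse 11 and -2.57 without mouse 3. High dose minus time-separated turned to -10.4 points without mouse 16. Depth went with the groups: the time-matched tumors had 372470 to 605181 retained reads and the low-dose tumors 61833 to 195676, and with all libraries thinned to one size time-matched minus time-separated was 9.77 points, low dose minus time-separated -1.32 and high dose minus time-separated -10.3.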

How the data were processed

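TCRβ repertoires of 24 tumors (12 mice, 4 groups of 3) were analyzed, and the TCRα tables were not used here. The authors made libraries with unique molecular identifiers and ran Cogent NGS Immune Profiler v2.0, which per their methods included an analysis based on those identifiers, and the deposited tables hold read counts per sequence with no normalization. Whether reads of one identifier were merged in these counts is not given in the sources used here, so they may not be independent molecules. No genome build is named, and no coordinates are given.

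Here, sequences marked with a stop codon (6.78% to 9.65% of reads) and those under 5 reads were left out, which kept 61833 to 881509 reads and 454 to 2313 clonotypes per tumor and 86.9% to 97.9% of the unmarked reads. 5 reads were between 0.000567% and 0.00809% of a tumor. Sequences of a tumor were summed into clonotypes (CDR3 amino acids, V and J segment). V and J ends were taken base by base as the commonest base while at least 0.6 of the sequences of a segment had it. The public clonotypes and the lists were chosen with earlier results of these data known, and the near-copy filters were added after the data were seen.

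Named were the 10 clonotypes in most mice, the 5 with the highest mean share, the 5 with most distinct encodings and the 5 in most mice with one encoding, and all V and J segments that passed the test. Encodings of 3 of the 5 with most distinct encodings are not printed, and those of 1 of the 5 with the highest mean share are not reported here. Other clonotypes were named as examples after their values were seen. Tests were exact two-sided sign-flip tests over 12 mice and exact permutation tests over 3 against 3 or 9 mice, with Benjamini-Hochberg adjustment over segments with at least 20 clonotypes or over 4 group comparisons. Intervals are 95% Clopper-Pearson intervals. Alternatives changed the read minimum, the clonotype definition, the depth, the number of mice, the one-mouse clonotypes and the sequences with 100 or 1000 times more reads in another mouse, and left out each mouse. Computations were tested on simulated data and run in Python 3.11.15 with pandas 2.3.3, scipy 1.17.1 and numpy 2.4.6, and figures were drawn with matplotlib 3.10.9.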

Additional observations from a re-analysis of the deposited data

How the results depend on the processing

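The differences in CDR3 length, middle bases, encodings and persistence kept their direction and passed the test in each alternative run, 28 for length and middle bases and 27 for the others (length -2.54 to -0.93 residues, middle bases -4.89 to -3.25, encodings 0.238 to 3.18, persistence 11.1 to 33.4 percentage points). The number of public clonotypes depended on the definition: 288 with a minimum of 2 reads, 92 with 10, 67 with libraries thinned to 66760 reads before the filter, 323 with 3 or more mice, 84 with 5 or more and 92 without near copies and without sequences with 100 times more reads in another mouse, and 118 to 136 with any mouse left out. Of V segments 12 passed in thinned libraries. The same encoding was found in 46.6% of mouse pairs with a minimum of 2 reads, 30.6% with clonotypes by CDR3 alone, 31.1% in thinned libraries and 27.4% without both kinds of sequences. High-dose DAC minus time-separated share changed sign to -6.47 points (minimum of 10 reads), -10.3 (thinned), -6.18 and -1.85 (without sequences with 1000 or 100 times more reads in another mouse) and -7.44 (without both kinds), and ranged from -10.4 without mouse 16 to 14.5 without mouse 10. The cause was not tested. The other 3 share differences kept their direction, with adjusted p from 0.0545 to 1, but not their size: time-matched minus time-separated went from 7.43 points (without sequences with 1000 times more reads in another mouse) to 33.7 (without mouse 12), minus all time-separated from 10.6 to 31.0 (the same settings), and low dose minus time-separated from -19.2 (without mouse 11) to -0.90 (3 or more mice). The difference in persistence of the time-matched mice failed its test in 11 of 25 alternatives, thinning among them. No paired analysis was possible because replicate numbers are not shared between groups, and only public and one-mouse clonotypes were compared within a mouse. Single libraries and a floor of 5 reads limit what can be said of rare clonotypes: one not found may lie below the floor.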
